A study of Ovis aries with 12 samples.

Results

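The genes described here are 8 markers of adult neurogenesis and of progenitor cells, namely EOMES, DCX, SOX11, SOX2, NEUROD1, IGFBPL1, MKI67 and TOP2A. They were found by symbol in a table of 33609 sheep genes, and all 8 were among the 17806 genes with counts high enough to be tested. Polyadenylated RNA was sequenced from the dorsal and from the ventral hippocampus of 12 adult ewes of the Ile-de-France breed. The 4 groups were dorsal control, dorsal stress, ventral control and ventral stress, from 6 ewes kept as controls and 6 under chronic stress. What the stress consisted of and how long it lasted is not stated in the labels. Each library was an equal mix of RNA from 2 ewes, with 3 libraries per group, so that single ewes cannot be told apart. Both regions came from the same ewes, and p-values treat their pools as independent. The dorsal libraries carry the prefix DG in their names, which the series record gives as short for dorsal.

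In the adult mammalian hippocampus, new granule neurons arise in the subgranular zone of the dentate gyrus. Radial glia-like stem cells that express SOX2 give rise to dividing intermediate progenitors marked by EOMES, and these become neuroblasts that express NEUROD1, SOX11, IGFBPL1 and DCX before they mature. MKI67 and TOP2A are expressed in cells that pass through the cell cycle, whatever their type. In bulk tissue, fewer cells of a type and less RNA per cell cannot be told apart.

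Library totals ranged from 12254743 to 53775720 counts, and the 3 dorsal control libraries were all deeper than the 3 dorsal stress libraries. Levels are given in CPM, a gene's counts scaled to library size with edgeR's TMM factors, and 1 CPM corresponded to 12.2 counts in the shallowest library. The libraries of a group differed widely from each other, since differences within groups made up 73.0% of the variance of log2 CPM. Excitatory neuron markers of the hippocampus were present in all libraries, with a summed level of 9 genes of 4835 to 7284 CPM in dorsal and 2726 to 5019 CPM in ventral tissue. Of these 9 genes RGS14 and CAMK2A were called higher in dorsal tissue, beside 1.44% of all genes tested. Their log2 fold changes were 2.19 ± 0.32 and 0.60 ± 0.13 (edgeR adjusted p = 0.00436 and 0.0265). By sign 8 of the 9 were higher in dorsal tissue. WFS1 had the opposite sign at -0.80 ± 0.32 and was not called (0.284). The classical granule cell marker PROX1 was detected in every library, between 1.19 and 37.2 CPM.

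Of the 8 genes, EOMES alone was called between the regions. It was 9.51-fold higher in dorsal than in ventral hippocampus, while DCX, the marker of the immature neurons that follow EOMES cells in the lineage, had the opposite sign and was not called. The other 6 genes had positive differences between 0.05 and 0.81 on the log2 scale, and none of them was called. Over all genes tested, 4.51% were called between the regions in either direction, with 1.44% higher and 3.07% lower in dorsal tissue, against 1 and 0 of these 8. At an unadjusted p under 0.05 there were 3 of the 8 (EOMES, DCX and IGFBPL1), beside 13.7% of all genes. A call is an adjusted p under 0.05 in edgeR's quasi-likelihood test with Benjamini-Hochberg adjustment over all 17806 genes. Log2 fold changes are given ± their standard error, and the comparison is the mean of both conditions. The median log2 fold change of the 8 genes was 0.40, beside -0.02 for all genes tested.

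**Figure D1:**
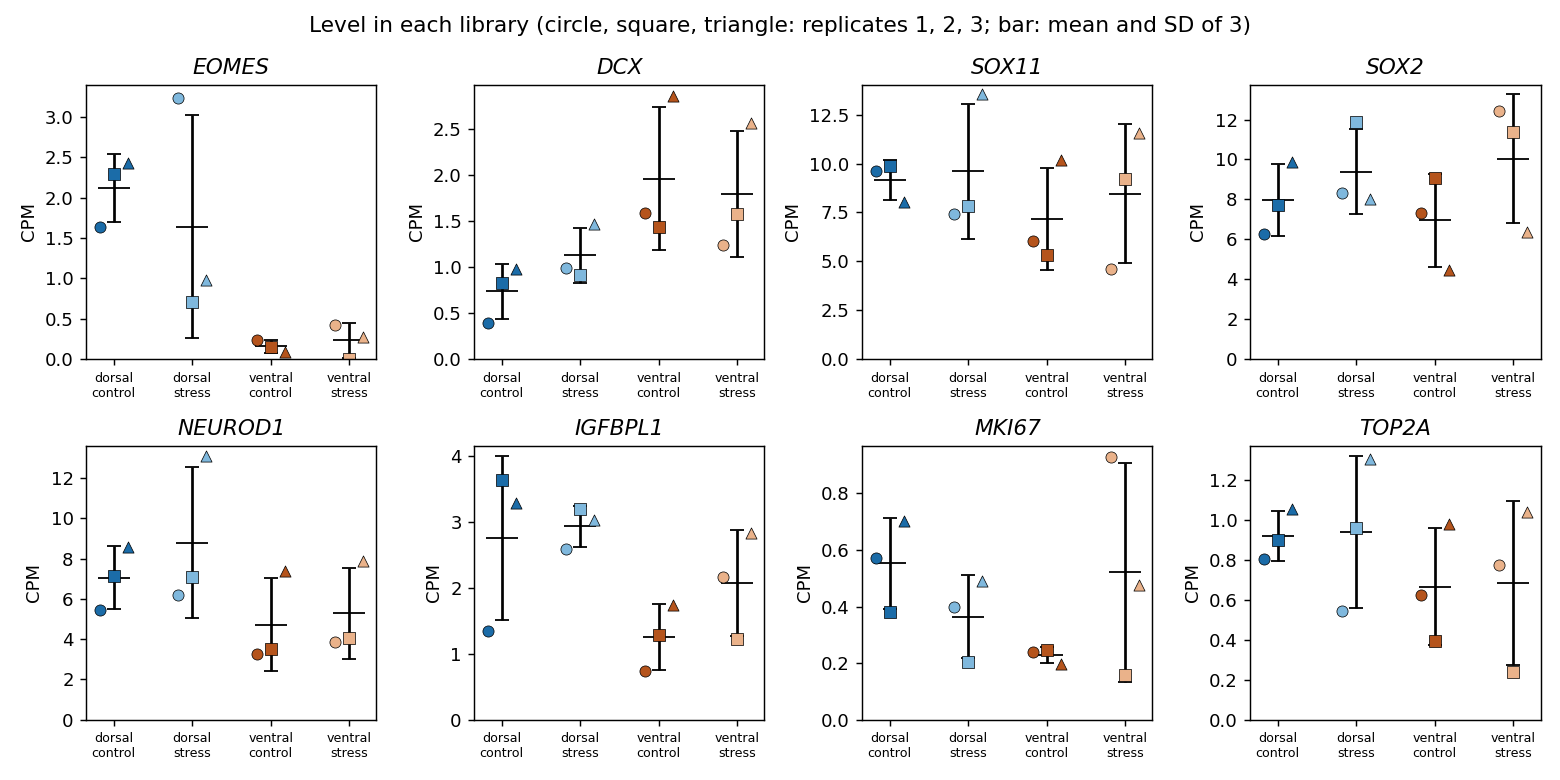
Level of each of the 8 genes in CPM (vertical axes, each from 0) in the 3 libraries of each group, with the mean and SD as bars; circles, squares and triangles are replicates 1, 2 and 3. All 6 dorsal libraries lie above all 6 ventral ones for EOMES (0.710 CPM or more against 0.426 CPM or less), and the regions overlap for the other 7 genes.

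EOMES encodes a T-box transcription factor, also called TBR2, of intermediate neuronal progenitors. It stood at 1.63, 2.29 and 2.42 CPM in dorsal control libraries 1 to 3 and at 3.23, 0.710 and 0.981 CPM in dorsal stress libraries 1 to 3. In ventral tissue it stood at 0.240, 0.149 and 0.0840 CPM in control libraries 1 to 3 and at 0.426, 0 and 0.268 CPM in stress libraries 1 to 3. Every dorsal library thus lay above every ventral one, and dorsal stress library 1 was the highest of all 12, more than 3 times as high as the other 2 dorsal stress libraries. Separation of the regions within each condition, a weaker rule that EOMES also met, was seen for 6.37% of the genes tested, 2.7% with dorsal tissue higher.

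The regional difference of EOMES was 3.25 ± 0.66 on the log2 scale (95% interval 1.78 to 4.72, edgeR adjusted p = 0.0205). It rests on few reads, 338 counts in the 6 dorsal libraries and 36 in the 6 ventral ones, and ventral stress library 2 had none, which allows up to 0.119 CPM there. The group means were 2.12 ± 0.423 CPM in dorsal control, 1.64 ± 1.39 CPM in dorsal stress, 0.158 ± 0.0786 CPM in ventral control and 0.231 ± 0.215 CPM in ventral stress (SD, n = 3 each). In this order of groups the ranges of the 2 dorsal groups overlapped, as did those of the 2 ventral groups, and a gap parted dorsal from ventral. EOMES passed the filter on low counts through its dorsal libraries, since all 6 of them and only 1 ventral library reached 0.401 CPM before scaling. The call was lost in 4 of 12 fits that left out a library. These were the fits without dorsal control 2, dorsal control 3, ventral control 2 and ventral stress 3 (edgeR adjusted p = 0.0526, 0.0519, 0.0642 and 0.0551). Log2 fold changes in these 4 fits were 3.20 to 3.31.

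EOMES is also expressed outside the dentate lineage, in some T and natural killer cells and in the lineage of cortical Cajal-Retzius cells, so markers of these were measured. The summed level of 13 T and natural killer cell genes was 13.0 to 19.8 CPM in dorsal and 12.9 to 19.8 CPM in ventral libraries, and 0 of 11 tested members were called (median log2 fold change -0.18). By sign 3 were positive and 8 negative, and 3 of the negative ones had an unadjusted edgeR p under 0.05. LCK, the most abundant at 5.78 CPM on average, had the sign of EOMES at 0.66 ± 0.30 (edgeR adjusted p = 0.377). In this list GZMA was at 0 in 9 of 12 libraries, and CD3E averaged 2.22 CPM in dorsal control, 2.62 in dorsal stress, 2.67 in ventral control and 2.81 CPM in ventral stress. The 8 genes of the Cajal-Retzius list summed to 159 to 216 CPM in dorsal and 230 to 475 CPM in ventral libraries, and NDNF was called lower in dorsal tissue (-1.18 ± 0.19, edgeR adjusted p = 0.00648). Most of that sum came from CALB2, RELN and CXCL12, which other cells also express. TP73, another member of the list, had the sign of EOMES at 0.74 ± 0.34 and was not called (0.369), and LHX5 was at 0 in 9 of 12 libraries.

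Summed markers of some other cell types were also higher in dorsal tissue. The 9 choroid plexus genes, led by the carrier protein gene TTR, summed to 383 to 2847 CPM in dorsal and 60.2 to 426 CPM in ventral libraries. Of 8 tested members 3 (TTR, CLIC6 and AQP1) were called higher in dorsal tissue, beside 1.44% of all genes. TTR made up most of the sum, and 3 members had the opposite sign, KL at -1.69 ± 0.65 (edgeR adjusted p = 0.242), SLC4A5 at -0.66 and KCNJ13 at -0.14, none of them called. When the average log2 CPM of the tested members (the choroid plexus score) was added to the fit, the EOMES difference was 4.16 ± 1.03 (edgeR adjusted p = 0.0710). That fit called 160 genes in all, 0.899% of those tested. For oligodendrocytes, the myelin-forming cells, 8 genes summed to 6666 to 10870 CPM in dorsal and 3815 to 8375 CPM in ventral libraries, with MOBP called. The 8 ependymal genes ranged from 123 to 188 CPM and from 89.1 to 205 CPM, with 0 called. The part of oligodendrocyte and ependymal content in the EOMES difference was not tested.

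**Figure D2:**
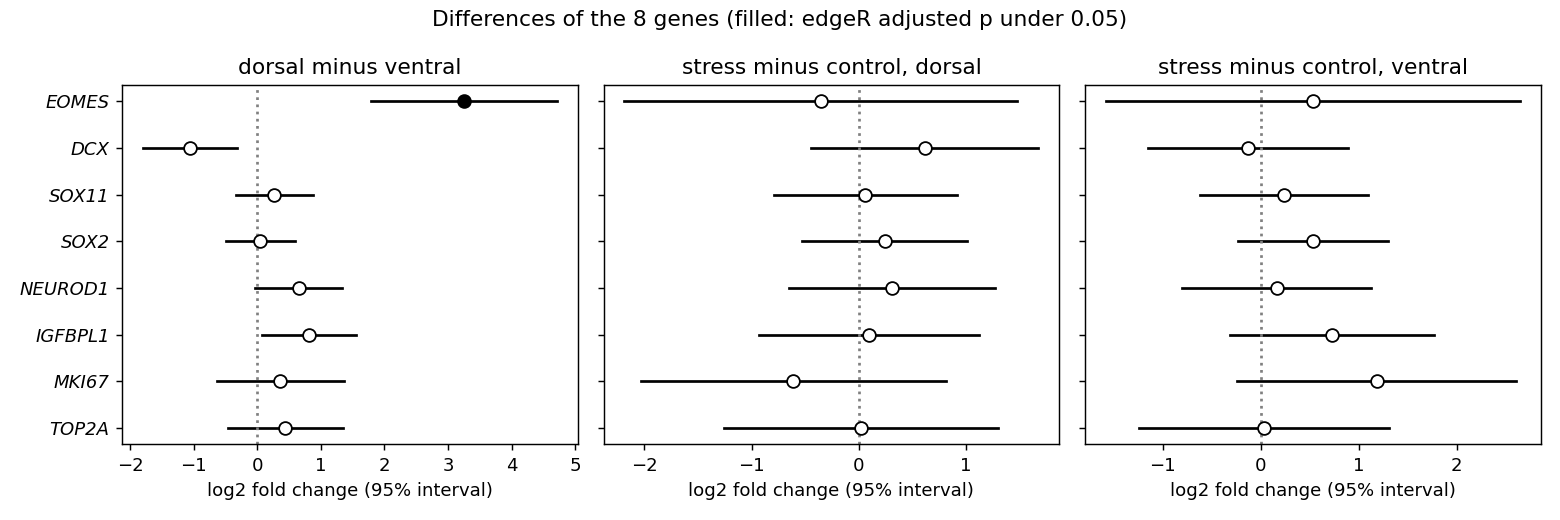
Log2 fold change of each gene with its 95% interval (horizontal axes) for dorsal minus ventral, for stress minus control in dorsal tissue and for stress minus control in ventral tissue; filled points were called by edgeR. EOMES at 3.25 between the regions is the single filled point, and all 16 intervals of the stress effects include 0.

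Of the 4 neuroblast genes, NEUROD1, IGFBPL1 and SOX11 had the sign of EOMES and DCX had the opposite sign. DCX encodes doublecortin, a microtubule protein of migrating immature neurons. It stood at 0.394, 0.832 and 0.977 CPM in dorsal control, 0.995, 0.912 and 1.47 CPM in dorsal stress, 1.59, 1.44 and 2.86 CPM in ventral control and 1.24, 1.58 and 2.56 CPM in ventral stress libraries 1 to 3. The control groups did not overlap, with all 3 ventral libraries above all 3 dorsal ones, whereas the stress groups overlapped through dorsal stress library 3. The share of all genes that parted the control groups in this way was not counted. The regional difference of DCX was -1.05 ± 0.34 (95% interval -1.80 to -0.31, edgeR adjusted p = 0.126), a level 2.08-fold lower in dorsal tissue. DESeq2 called it (-1.07 ± 0.35, adjusted p = 0.0304), as it did 8.76% of all genes.

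NEUROD1 is a basic helix-loop-helix factor that drives the step from progenitor to neuron and persists in granule cells. Libraries 1 to 3 held it at 5.46, 7.15 and 8.56 CPM in dorsal control, 6.17, 7.10 and 13.1 CPM in dorsal stress, 3.27, 3.52 and 7.37 CPM in ventral control and 3.87, 4.07 and 7.90 CPM in ventral stress. Library 3 was the highest in each group, and the 2 ventral libraries numbered 3 reached into the dorsal range. The regional difference was 0.65 ± 0.31 (edgeR adjusted p = 0.404).

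IGFBPL1 encodes a secreted protein of the insulin-like growth factor binding family and marks immature neurons. It stood at 1.34, 3.64 and 3.28 CPM in dorsal control, 2.59, 3.19 and 3.02 CPM in dorsal stress, 0.745, 1.29 and 1.74 CPM in ventral control and 2.17, 1.23 and 2.83 CPM in ventral stress libraries 1 to 3. Dorsal libraries were mostly higher, but dorsal control 1 lay among the ventral libraries, and ventral stress 3 was above dorsal stress 1. Its difference was 0.81 ± 0.33 (95% interval 0.08 to 1.55, edgeR adjusted p = 0.285).

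SOX11, a transcription factor of committed immature neurons, differed by 0.26 ± 0.27 (edgeR adjusted p = 0.932). It ranged from 7.41 to 13.6 CPM with a median of 8.81 CPM in dorsal and from 4.61 to 11.6 CPM with a median of 7.62 CPM in ventral libraries (n = 6 each). None of the 4 neuroblast genes was called.

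SOX2, a transcription factor that keeps neural stem cells undifferentiated and is also expressed by astrocytes, was at like levels in both regions. It ranged from 6.28 to 11.9 CPM with a median of 8.16 CPM in dorsal and from 4.48 to 12.4 CPM with a median of 8.19 CPM in ventral libraries (n = 6 each). The difference of 0.05 ± 0.24 had a 95% interval from -0.49 to 0.59 (edgeR adjusted p = 1). In the RefSeq gene table a long noncoding RNA gene, LOC105603076, overlaps SOX2. It held 1593 to 9681 counts per library, against 98 to 343 for SOX2. The strand setting of the counting is not given, and reads of the 2 genes may not be fully parted.

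The cell cycle genes were near the limit of detection. MKI67 encodes Ki-67, a chromosome surface protein of dividing cells, and had 148 counts over all 12 libraries, between 4 and 29 in each. It stood at 0.571, 0.382 and 0.703 CPM in dorsal control, 0.398, 0.203 and 0.490 CPM in dorsal stress, 0.240, 0.248 and 0.196 CPM in ventral control and 0.929, 0.158 and 0.477 CPM in ventral stress libraries 1 to 3. In control ewes every dorsal library was above every ventral one, and in stressed ewes the regions overlapped. The share of all genes separated in control ewes alone was not counted. Averaged over conditions the difference of MKI67 was 0.36 ± 0.45 (edgeR adjusted p = 0.981).

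TOP2A, the topoisomerase that untangles DNA during division, had 284 counts in all. It ranged from 0.547 to 1.31 CPM with a median of 0.931 CPM in dorsal and from 0.237 to 1.04 CPM with a median of 0.699 CPM in ventral libraries (n = 6 each). Its difference was 0.44 ± 0.41 (edgeR adjusted p = 0.887). For MKI67 the 95% interval reached from -0.64 to 1.36 and for TOP2A from -0.46 to 1.34, so that a difference of 1 on the log2 scale in favour of dorsal tissue lay within both.

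Apart from the gap of EOMES between dorsal and ventral tissue, the order of the 4 groups was not firm for any of these genes. Dorsal stress and dorsal control had the highest and the next highest mean for SOX11, NEUROD1, IGFBPL1 and TOP2A. Ventral control had the lowest mean for all genes except DCX, where it was the highest. Groups that were neighbours in the order of means had overlapping ranges in every case but the step of EOMES from dorsal to ventral.

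Stress against control, the second question of the design, gave no call among these genes in either region. In dorsal tissue 0 of 8 genes were called and 0 had an unadjusted p under 0.05, and edgeR called 0 genes in all (0% of those tested), while 0.854% had an unadjusted p under 0.05. For the whole table DESeq2 called 1 gene in each region and none of the 8. In ventral tissue edgeR likewise called 0 genes (0%), with 0.797% at an unadjusted p under 0.05 and 0 of the 8 among them. For none of the 8 did the stress libraries lie wholly apart from the control libraries in either region, as they did for 5.13% of all genes in dorsal and 2.86% in ventral tissue.

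Neuroblast and progenitor genes had stress effects with wide intervals. EOMES differed by -0.36 ± 0.83 in dorsal and 0.53 ± 0.96 in ventral tissue, and without dorsal stress 1 its dorsal value was -1.33. DCX, which is widely used as a readout of stress effects on neurogenesis, differed by 0.62 ± 0.48 in dorsal tissue (95% interval -0.45 to 1.68) and by -0.13 ± 0.46 in ventral tissue (95% interval -1.15 to 0.89). A fall of DCX under stress by more than 1 on the log2 scale thus lay outside the interval in dorsal tissue but not in ventral tissue. NEUROD1 differed by 0.31 ± 0.44 and 0.16 ± 0.44, SOX11 by 0.06 ± 0.39 and 0.24 ± 0.39, and IGFBPL1 by 0.09 ± 0.47 and 0.73 ± 0.47, in dorsal and ventral tissue in this order. SOX2 differed by 0.24 ± 0.35 and 0.53 ± 0.35. All of these had an edgeR adjusted p of 1.00.

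Among the cell cycle genes, MKI67 had stress effects of opposite sign in the 2 regions, -0.61 ± 0.65 in dorsal and 1.18 ± 0.64 in ventral tissue. The difference of these effects was -1.79 ± 0.91 (unadjusted p = 0.0751, edgeR adjusted p = 1), and none of the 8 genes was called in that comparison, in which edgeR called 0 genes (0%), with 0.258% at an unadjusted p under 0.05. The counts behind it were 64 in dorsal control, 18 in dorsal stress, 22 in ventral control and 44 in ventral stress, of which 24 came from ventral stress library 1. Without that library the ventral effect was 0.49. TOP2A differed by 0.02 ± 0.58 in dorsal and 0.03 ± 0.58 in ventral tissue.

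**Figure D3:**
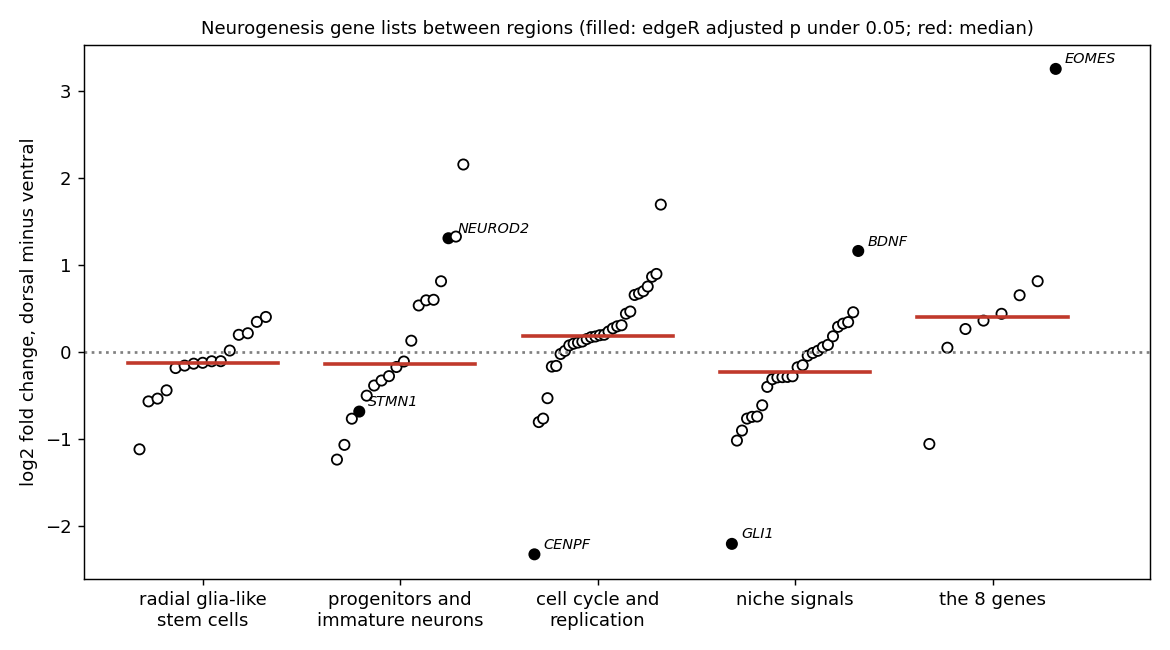
Log2 fold change between the regions, dorsal minus ventral, of each tested gene in 4 lists and among the 8 genes; filled points were called by edgeR and are named, and red lines are medians. Between 0 and 2 genes were called in each list, on both sides of 0, and the medians of the 4 lists lie between -0.23 and 0.19.

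Other genes of the neurogenic lineage were described from 4 lists. Of 15 tested genes of radial glia-like stem cells 0 were called between the regions (median -0.12). HES5, a Notch target, had -1.12 ± 0.38 (edgeR adjusted p = 0.171), and VIM, an intermediate filament protein, had -0.57 ± 0.22 (0.249). NES, which encodes nestin, stood at 70.7 to 165 CPM across libraries and differed by 0.20.

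Of 18 tested genes of progenitors and immature neurons 1 rose and 1 fell in dorsal tissue (median -0.14). NEUROD2, a neuronal differentiation factor that mature excitatory neurons also express, was higher at 113 ± 33.5 and 126 ± 46.5 CPM in the dorsal control and stress groups, against 50.9 ± 29.3 and 45.9 ± 12.7 CPM in ventral control and stress (1.31 ± 0.31, edgeR adjusted p = 0.0385). STMN1, a microtubule destabilizing protein, was lower at 526 ± 97.0 and 461 ± 30.1 CPM against 803 ± 172 and 778 ± 82.6 CPM (-0.68 ± 0.14, edgeR adjusted p = 0.0229). CALB2, a marker of immature granule cells and of interneurons, had -1.23 ± 0.34 and was not called (edgeR adjusted p = 0.0742). NEUROG2, which acts just before EOMES in cortical development, stood at 0.797 CPM on average and differed by 0.81. Of the 12 fits that left out a library, NEUROD2 was called in 2, those without ventral control 1 and 3, and its highest adjusted p was 0.111, without ventral control 2. STMN1 lost its call when 1 of 7 libraries was left out, namely dorsal control 1 and 2, all 3 of dorsal stress, and replicate 2 of both ventral groups (highest 0.0678), and with the choroid plexus score (0.0830).

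Cell cycle genes did not move as one. Of 30 tested members 23 had positive and 7 negative differences, against 47.4% positive among all genes, with a median of 0.19, and the single call was on the ventral side. CENPF, a kinetochore protein, was lower in dorsal tissue, at 0.565 ± 0.470 and 0.507 ± 0.274 CPM in the dorsal control and stress groups, against 3.06 ± 2.35 and 2.24 ± 0.211 CPM in ventral control and stress (-2.32 ± 0.52, edgeR adjusted p = 0.0301). Of the 12 fits that left out a library it was called in 3, those without replicate 3 of either dorsal group and without ventral control 1 (highest 0.0961, without dorsal stress 2), and lost its call with thinned counts (0.0589) and the choroid plexus score (-4.00, 0.0562). The next smallest p belonged to CCND1, a G1 cyclin, at -0.80 ± 0.24 (0.101) and MELK, a mitotic kinase, at 1.69 ± 0.53 (0.121). CDK1, the mitotic kinase proper, averaged 0.294 CPM and differed by 0.10.

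Among 26 tested niche signals and receptors 1 rose and 1 fell (median -0.23). GLI1, a transcription factor and target gene of hedgehog signalling that marks hedgehog-responsive stem cells and astrocytes, was lower at 0.481 ± 0.0940 and 0.524 ± 0.300 CPM in the dorsal control and stress groups, against 2.26 ± 0.317 and 2.37 ± 1.12 CPM in ventral control and stress (-2.20 ± 0.37, edgeR adjusted p = 0.00767). GLI1 kept its call without each of the 12 libraries and lost it with the choroid plexus score (-2.07 ± 0.69, 0.0853). Its pathway members PTCH1 and SMO differed by -0.18 and -0.40 and were not called. BDNF, a neurotrophin that supports new neurons, rose by 1.16 ± 0.24 (0.0220), a call that ended when 1 of 6 libraries was left out, namely replicates 2 and 3 of both dorsal groups, ventral control 2 and ventral stress 3 (highest 0.0655) and with the choroid plexus score (0.63, 0.250). FRZB, a secreted Wnt antagonist made by granule cells, had -0.74 ± 0.20 (0.0601).

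Under stress 0 genes of these 4 lists were called in either region, as was the case for all genes. By edgeR's quasi-likelihood test the smallest unadjusted p in dorsal tissue was that of PROM1, the stem cell surface protein prominin, at 1.46 ± 0.53 (edgeR adjusted p = 1.00). In ventral tissue it was that of CXCR4, a chemokine receptor of migrating progenitors, at 0.55 ± 0.24 (edgeR adjusted p = 1.00).

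Markers of a further neurogenic niche, the subventricular zone with its olfactory neuroblasts, were low and lay on the side of DCX. The 8 genes summed to 15.1 to 17.6 CPM in dorsal and 20.4 to 33.4 CPM in ventral libraries, with no overlap. DLX6, a homeobox gene also expressed by interneurons, was called lower in dorsal tissue (-1.03 ± 0.25, edgeR adjusted p = 0.0459), 1 of 6 tested members beside 3.07% of all genes. The part of such cells in the DCX difference was not tested. Dentate granule cell markers, in contrast, overlapped between the regions, at 350 to 688 CPM summed over 11 genes in dorsal and 243 to 678 CPM in ventral libraries. Of 9 tested members 3 (DSP, PDZD2 and IGFBP5) were called lower in dorsal tissue, beside 3.07% of all genes, and 0 were called higher, beside 1.44%. By sign 4 differences were positive and 5 negative. The positive ones included SEMA5A at 0.91 ± 0.23 (edgeR adjusted p = 0.0561) and PROX1 at 1.33 ± 0.75 (0.564).

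**Figure D4:**
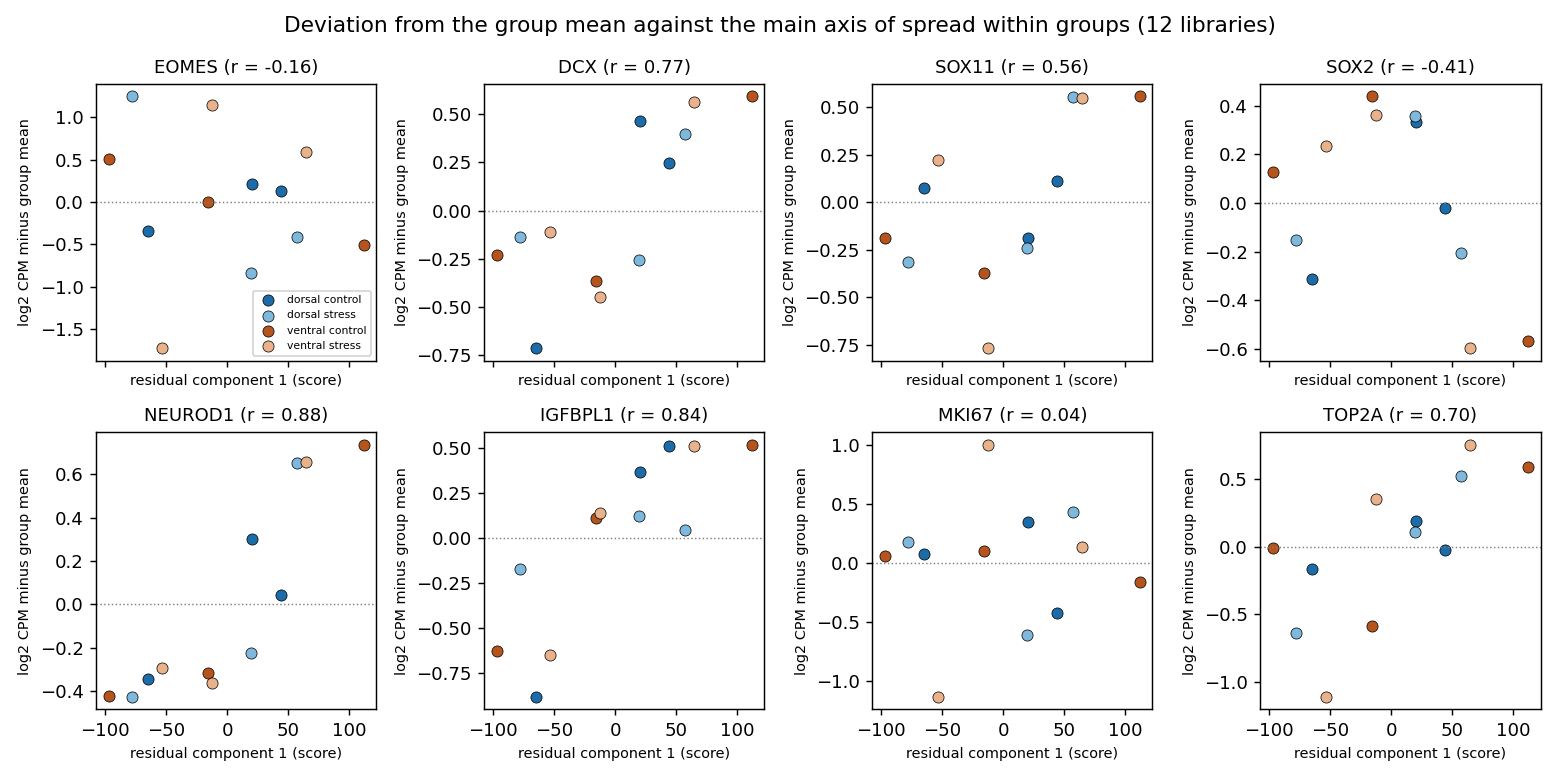
Deviation of log2 CPM from the group mean (vertical axes) against the score of the library on the main axis of spread within groups (horizontal axes) for each gene in the 12 libraries, coloured by group. NEUROD1, IGFBPL1, DCX and TOP2A increase along the axis (r = 0.88, 0.84, 0.77 and 0.70), whereas EOMES and MKI67 do not follow it (r = -0.16 and 0.04).

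After subtraction of group means, the first principal component of all tested genes held 66.1% of the remaining variance, and NEUROD1 (r = 0.88), IGFBPL1 (0.84), DCX (0.77) and TOP2A (0.70) increased along it over the 12 libraries. SOX11 had r = 0.56 with the axis, and its r with IGFBPL1 within groups was 0.17. Most genes follow this axis, as 65.6% of all tested genes had an absolute r of at least 0.7, so that 4 of 8 is no excess. Ventral control 3 and ventral stress 3, the libraries highest in DCX, were also the highest on the axis, and ventral control 1 was the lowest. The r of the axis with log2 library total, also as deviations within groups, was -0.29. The means of the granule cell and astrocyte markers increased along it (r = 0.98 and 0.97), and those of microglia and endothelial cells decreased (r = -0.82 and -0.81). Markers of hippocampal excitatory neurons also decreased (r = -0.81), as did ependymal markers (-0.62). Choroid plexus and subventricular zone markers increased (0.72 and 0.77). Of the 4 lists above, progenitors and immature neurons had r = 0.97, niche signals 0.71, cell cycle genes 0.20 and stem cell genes -0.25. The part of the cell types named here in the spread of the 8 genes was not tested.

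With the score on this axis as a covariate, the regional differences of the neuroblast genes had smaller errors. The axis was computed from the same libraries, so these p-values may be too small. DCX was then called at -1.04 ± 0.27 (edgeR adjusted p = 0.0140), NEUROD1 at 0.69 ± 0.16 (0.00808) and IGFBPL1 at 0.85 ± 0.23 (0.0167), beside EOMES at 3.22 ± 0.56 (0.00117). The fold changes were close to those without the covariate, and 21.1% of all genes were called in this fit, against 4 of 8. In the same fit DCX was on the ventral and NEUROD1 and IGFBPL1 on the dorsal side.

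**Figure D5:**
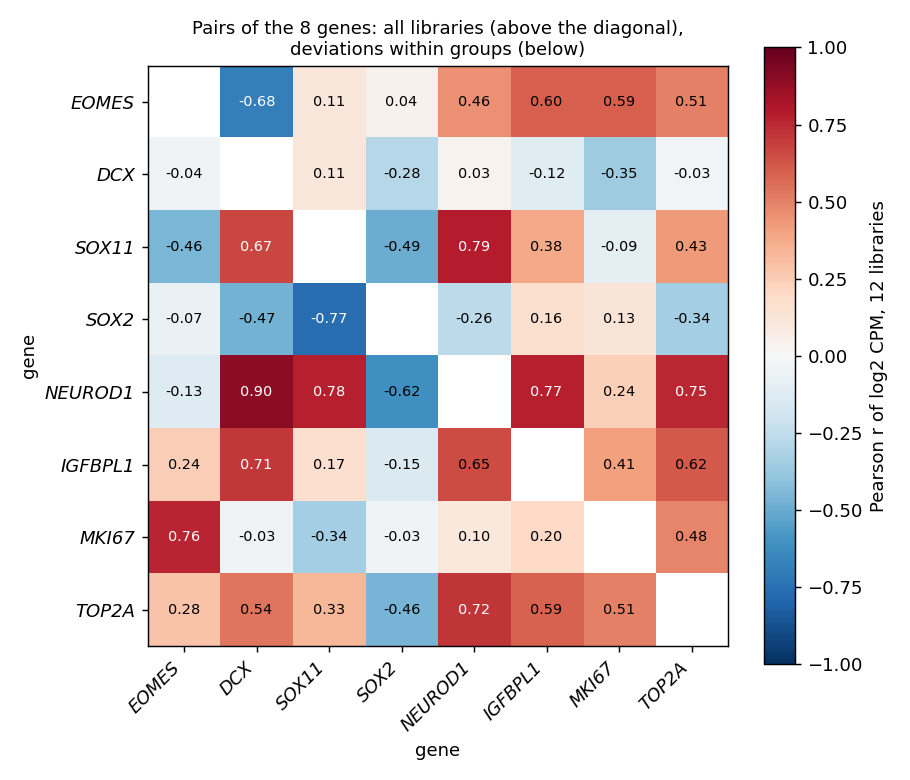
Pearson r of log2 CPM over the 12 libraries for each pair of the 8 genes; cells above the diagonal use all libraries as they are, and cells below it use deviations from group means. Below the diagonal DCX and NEUROD1 reach 0.90, and EOMES and DCX, at -0.68 above it, are at -0.04.

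Pairs of these genes are described over the same 12 libraries, which share depth and the axis above. DCX and NEUROD1 had r = 0.90 within groups and 0.03 across all libraries. SOX11 followed NEUROD1 both within groups (0.78) and across all libraries (0.79). SOX2 went against SOX11 within groups (-0.77). EOMES and MKI67 had r = 0.76 within groups, but both are sparse, and ventral stress 2 was the lowest library of the 12 for both. EOMES and DCX had r = -0.68 across all libraries and -0.04 within groups.

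The genes with the pattern most like each of these over the 12 libraries, out of 14404 with a symbol, were named by the highest r of log2 CPM. For EOMES they were DISP1, PMFBP1 and CHGB (r = 0.95, 0.94 and 0.94), of which CHGB encodes a secretory granule protein and DISP1 a protein that releases hedgehog ligands. For DCX they were KLHL3, SEC61A2 and SGPP2 (0.95, 0.94 and 0.94), and for SOX11 LMO3, POU3F3 and TIAM1 (0.92, 0.90 and 0.90). SOX2 was closest to ALDH1L1, DVL1 and SLC39A1 (0.93, 0.93 and 0.92). ALDH1L1 is a standard astrocyte marker, but the mean of the 8 astrocyte genes had r = -0.30 with SOX2 within groups. NEUROD1 was closest to RBSN, COL4A6 and METTL14 (0.96 each), IGFBPL1 to PLK2, MAL2 and TSPAN12 (0.95, 0.95 and 0.94), and TOP2A to PRKCA, ZFPM2 and MASTL (0.94, 0.92 and 0.92). MKI67 had the lowest values, with SRPRA, WDR72 and CTPS2 at 0.78, 0.78 and 0.77.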

How the data were processed

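The authors deposited whole-number gene counts for the 12 libraries in 1 table. Per the labels, RNA was extracted with TriReagent and libraries were made with a stranded mRNA kit. The submitters' processing notes name, without their roles, featureCounts 2.0.0, TopHat2 2.1.1 with Bowtie2 2.3.5.1, as well as SAMtools 1.9, FastQC and bcl2fastq 2.20. The build, the annotation and the strand setting are not given in those notes or the table, so no positions are printed.

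Each column name equals the description of 1 sample, which set its group. In R 4.3.3, edgeR 4.0.16 filterByExpr by group kept 17806 of 33609 genes. TMM scaling and a robust quasi-likelihood fit with 1 mean for each of the 4 groups followed. The 4 comparisons were region, stress in dorsal tissue, stress in ventral tissue and the difference of the stress effects. Log2 CPM used a prior count of 2. No 2 libraries of a group were alike (least chi-square 21.6 per degree of freedom). The script was tested on simulated counts with 200 genes changed between the regions. It called 22% of those set to a log2 fold change of 1 in either direction and 66% of those set to 2, with 3 false calls.

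The 8 genes and the lists were chosen with earlier results of these data known. Named genes were the 8, the called members of 4 pathway lists or otherwise up to 3 by smallest p, up to 3 abundant members of marker lists, and for each of the 8 the 3 genes with the highest r. Exceptions, chosen after their values were seen, are NES, NEUROG2, CDK1, PTCH1, SMO, LOC105603076 and marker genes named for a call, for their role, for their sign or for a value of 0. Of 210 list genes 206 were matched, some through RefSeq names of the assembly ARS-UI_Ramb_v3.0, and 191 were tested. A stem cell list gene that the rule names is not reported here.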

Additional observations from a re-analysis of the deposited data

How the results depend on the processing

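The tests were repeated with DESeq2's size factors in edgeR, without a filter, with at least 1 CPM required in 3 libraries (which drops MKI67), with DESeq2 1.42.0, limma-voom 3.58.1, with blocks for replicate number, thinned counts, a choroid plexus score, the first residual component, and leaving out each library. The number of genes called between regions was 1558 with DESeq2, 1375 with the replicate block, 160 with the choroid plexus score, 3761 with the residual component and 424 to 1090 without single libraries. Of the 8 genes 2, 3, 0, 4 and 0 to 1 were called. EOMES kept its sign throughout, at 4.16 with the choroid plexus score and 2.76 to 3.60 without single libraries. DESeq2 called 1 gene for stress in dorsal and 1 in ventral tissue. Labels give the same replicate numbers to all groups but do not say that they mark shared ewes, and same-numbered regional pairs correlated between -0.23 and 0.76 in their deviations. In the fit with the replicate block DCX (-1.02, edgeR adjusted p = 0.0424) and NEUROD1 (0.70, 0.0265) gained calls, and with a block by pool neither did. Signs of small effects that were not called turned. With the choroid plexus score regional values were -0.50 for SOX11, -0.50 for NEUROD1, -0.084 for MKI67 and -0.77 for TOP2A. For stress in dorsal tissue TOP2A turned to -0.00055 with no filter, -0.048 with limma-voom, -0.018 with the replicate block and -0.047 with the residual component, and SOX11 to -0.031 with limma-voom and -0.031 with the replicate block. In ventral tissue EOMES turned to -0.21 with limma-voom and -0.73 with thinned counts, DCX to 0.090 with thinned counts, NEUROD1 to -0.0080 with the choroid plexus score, and TOP2A to -0.12, -0.22 and -0.033 with limma-voom, the choroid plexus score and the residual component. The difference of stress effects of EOMES turned to 0.17 with thinned counts. Leaving out single libraries gave -0.072 to 0.17 for SOX2 between regions. For stress in dorsal tissue it gave -1.33 to 0.0085 for EOMES, -0.24 to 0.35 for IGFBPL1, -0.088 to 0.51 for NEUROD1, -0.27 to 0.22 for SOX11 and -0.28 to 0.30 for TOP2A. In ventral tissue it gave -0.48 to 0.25 for DCX, -0.17 to 1.09 for EOMES, -0.25 to 0.64 for NEUROD1, -0.056 to 0.58 for SOX11 and -0.41 to 0.43 for TOP2A. The cause of these changes was not tested. Low counts limit MKI67, TOP2A and EOMES, which had 148, 284 and 374 counts in all.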
